A study of Mus musculus with 17 samples.

Results

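MicroRNA genes whose precursor probe sets stood above a chosen floor of signal were examined in cells of the aorta-gonad-mesonephros (AGM) region of E11.5 mouse embryos. The cells were sorted for the endothelial protein CD31 and against the blood proteins CD45 and Ter119. Besides endothelial and blood genes they had high signals of primordial germ cell genes, as given below. The members are the genes with a symbol of the Mir family, other than the 17 and 18 genes of the 17-92 cluster and its host transcript, whose mean log2 signal over all 17 arrays was at least 4. They numbered 143, against 288 such genes on the array and 19937 genes tested in all. Of these, 140 are microRNA genes and 3 are the host transcripts Mir100hg, Mir99ahg and Mir670hg. The rule used the mean level alone, so the levels are described and only differences between groups are tested. Leaving one group out of that mean took at most 4 members below the floor, and 6 members fell below it for some group.

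MicroRNAs are cut from long primary transcripts in steps. The Microprocessor, made of Drosha and Dgcr8, releases a hairpin precursor in the nucleus, exportin 5 carries it to the cytoplasm, and Dicer trims it to a short duplex of which one strand is loaded into an Argonaute protein. The mature strand pairs with messenger RNAs mainly through its seed, near its 5′ end, and lowers their stability or translation. Many microRNA genes lie inside other genes or in clusters that are transcribed together, such as the imprinted Dlk1-Dio3 region, whose microRNAs are made from the maternal chromosome. In the aorta of the embryo, blood stem cells arise from endothelial cells under the control of Notch signalling, and Mir126 of endothelium, the blood genes Mir142, Mir150 and Mir155, and the epithelial Mir200 family are known for their restriction to a cell type. The arrays measured amplified total RNA through probe sets for the precursors, so a value can come from the primary transcript, the hairpin or overlapping host RNA. The mature strands were not measured.

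The mature sequences of the microRNA genes on which the results turned are given 5′ to 3′, one strand for each gene, with the seed (bases 2 to 8) in capitals. They come from RefSeq, build GRCm38.p6. The first set belongs to genes that were higher in Kit- cells exposed to Jag1 than in Kit- cells exposed to Dll4, and it begins with the Dlk1-Dio3 genes on chromosome 12.
mmu-miR-127-3p: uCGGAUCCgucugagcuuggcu
mmu-miR-341-3p: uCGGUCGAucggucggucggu
mmu-miR-667-3p: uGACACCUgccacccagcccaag
mmu-miR-679-5p: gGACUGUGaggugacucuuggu
mmu-miR-449a-5p: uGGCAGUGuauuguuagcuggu
mmu-miR-194-5p: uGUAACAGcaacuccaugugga
mmu-miR-195a-5p: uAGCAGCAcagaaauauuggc
mmu-miR-200a-3p: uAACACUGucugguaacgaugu
mmu-miR-132-3p: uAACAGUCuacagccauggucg
mmu-miR-138-5p: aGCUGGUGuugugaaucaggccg

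The second set belongs to genes that differed between the Kit+ and Kit- cells exposed to Dll4 or between Kit+ groups.
mmu-miR-692: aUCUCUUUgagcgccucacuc
mmu-miR-674-5p: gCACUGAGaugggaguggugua
mmu-miR-19b-3p: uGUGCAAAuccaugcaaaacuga
mmu-miR-25-3p: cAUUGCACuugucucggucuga
mmu-miR-680: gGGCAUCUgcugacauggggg
mmu-miR-181d-5p: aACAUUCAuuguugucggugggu
mmu-miR-128-3p: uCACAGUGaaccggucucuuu

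Mir677 was the gene called between Kit- cells exposed to Jag1 and fresh Kit- cells. Its precursor of 78 bases lies on the plus strand at chr10:128085286-128085363 within Atp5b, and both mature arms are in capitals.
Mir677: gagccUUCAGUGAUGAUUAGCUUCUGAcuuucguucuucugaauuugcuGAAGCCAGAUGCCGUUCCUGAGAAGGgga

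The members with an entry in the sequence table gave 229 mature strands with 200 different seeds. Of these seeds, 22 were shared by 2 or more members and 44 members shared one. The seed GGCAGUG was common to Mir449a, Mir449c and Mir34b, AGCAGCA to Mir195a, Mir497 and Mir15a, AACAGUC to Mir132 and Mir212, and GCUGGUG to Mir138-1 and Mir138-2. The seed AUUGCAC was common to Mir25, Mir363 and Mir92b, and ACAUUCA to Mir181a-2, Mir181b-2, Mir181c and Mir181d. None of the 10 genes of the first set shared the seed printed for it with another gene of that set.

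In the study, CD31+CD45-Ter119- cells were sorted from pooled E11.5 AGM tissue, and Notch ligands were tested by placing them for 2 h on OP9 stromal cells, a mouse bone marrow stroma line, made to express Jag1 (OP9-Jag1) or Dll4 (OP9-Dll4). They were then sorted again for the receptor Kit. Kit-J cells were Kit- cells after OP9-Jag1 (n = 2 arrays), Kit-D cells were Kit- cells after OP9-Dll4 (n = 3) and Kit- cells were sorted fresh with no culture (n = 3). Kit+J (n = 3), Kit+D (n = 3) and Kit+ (n = 3) were the Kit+ cells after OP9-Jag1, after OP9-Dll4 and fresh. No embryo carried a stated mutation, and no group was cultured on OP9 cells without an added ligand. The fresh arrays came from an earlier series of the same laboratory, so in each comparison with a fresh group the culture cannot be told apart from the set of arrays.

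The labels were checked against marker genes before the microRNA genes were read. One label line of 4 arrays (both Kit-J, Kit-D replicate 3 and Kit+D replicate 3) names the opposite Kit population from their titles and source names, which set the groups here. Against the mean of fresh Kit- cells, the median over 12 endothelial markers was -1.61 and -1.61 on the Kit-J arrays, and between 0.12 and 0.66 on the Kit-D arrays, on the log2 scale. On the fresh Kit+ arrays it was between -2.08 and -1.76. The endothelial receptor Tek had a log2 signal of 5.75 and 6.19 on the Kit-J arrays, 8.87 to 9.49 on the Kit-D arrays and 8.39 to 8.95 on the Kit- arrays. The median over 10 primordial germ cell markers was 1.03 and 0.78 on the Kit-J arrays and between -2.60 and -0.88 on the Kit-D arrays, both relative to fresh Kit-. On the fresh Kit+ arrays this median was between 0.77 and 1.22. In both marker lists the Kit-J arrays thus lay nearer the Kit+ arrays than the Kit- arrays. Fresh Kit- cells had mean log2 signals from 5.11 (Dnd1) to 10.65 (Dppa5a) for the germ cell markers. The means of these genes were 5.49 and 11.765 in fresh Kit+ cells. Among 10 myeloid markers the Kit- means ran from 3.88 (Mrc1) to 10.46 (Tyrobp). Among 6 erythroid markers they ran from 4.405 (Epb42) to 10.76 (Hbb-y). Kit itself was 9.08 and 8.50 in Kit-J cells, 7.05 to 8.02 in Kit-D cells, 8.13 to 8.29 in Kit- cells and 9.44 to 9.55 in Kit+ cells. Ptprc, the gene of CD45, was 8.59 and 8.99 on replicate 1 of Kit-D and of Kit+D and 4.16 to 5.54 on the other Dll4 arrays. Outside the Dll4 groups it was between 7.38 and 9.195 on every array. In these bulk samples fewer cells of a type and less RNA per cell cannot be told apart, and the part of these markers in the microRNA results was not tested.

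The mean levels of the members, on which they were chosen, had a median of 5.27 on the log2 scale. Of the microRNA genes on the array 49.7% reached the floor, as did 83.2% of all genes. The floor is a chosen value and not a measured background, and the medians of the arrays were 5.22 to 5.38. A signal above the floor therefore does not show that a gene was expressed. These are signals of different probes, and their order is not one of abundance. Of the members, 58 had a mean between 4 and 5, 50 between 5 and 6, 25 between 6 and 7, and 10 above 7. The brightest were Mir692-1 (mean 9.18), Mir598 (8.89), Mir346 (8.74), Mir383 (8.18) and Mir667 (8.02), followed by Mir328, Mir194-2, Mir320, Mir341, Mir25, Mir187 and Mir680-3 down to 6.98. The values just inside the floor were Mir218-2 (4.03), Mir451a (4.02) and Mir192 (4.00), and those just outside it Mir216a (3.99), Mir409 (3.98) and Mir125b-1 (3.98). With Kit-J left out of the mean, Mir451a, Mir9-3 and Mir218-2 fell below the floor. With Kit+J left out, Mir218-1, Mir184, Mir192 and Mir451a did so. Mir126a, which lies in the endothelial gene Egfl7, had a mean signal of 2.30 and was no member, although these cells were sorted for an endothelial surface protein. The 115 members with a hairpin sequence had hairpins of 64 to 112 bases with a GC content of 41.3% to 69.2%. Over these members, which were chosen by level, Pearson's r of the mean level with hairpin GC content was 0.528 (a description).

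The median spread between replicate arrays was much the same for the members as for all genes, but a larger share of the members had a large spread. The pooled SD within groups had a median of 0.25 over the members, with quartiles of 0.19 and 0.359, against a median of 0.253 over all genes. Short nuclear and nucleolar RNAs, of which 53 lay above the floor, had a median SD of 0.643. The SD was above 0.5 for 25 of the 143 members and above 1 for 7, against 1938 and 163 of all 19937 genes. Those with the largest SD were Mir363 (1.45), a paralogue of the 17-92 cluster, Mir20a (1.29), Mir181b-2 (1.29), Mir103-2 (1.24) and Mir30e (1.17), and the smallest belonged to Mir138-1 (0.0856) and Mir448 (0.104). The genes with the largest range of group means were largely these variable ones: Mir363 (3.58), Mir103-2 (2.93), Mir19b-1 (2.64), Mir677 (2.54), Mir218-1 (2.31) and Mir181b-2 (2.20). Mir218-1 reached the floor only with Kit+J, its highest group, in the mean, so its range rests in part on the rule.

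**Figure D1:**
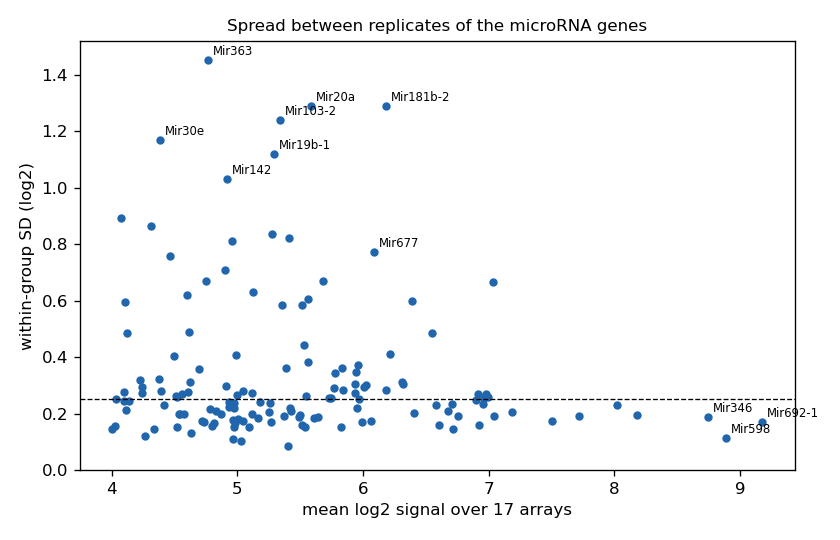
Pooled SD within the 6 groups (vertical axis, log2 units) against the mean log2 signal over 17 arrays (horizontal axis) for each of the 143 members, with the median SD of 0.25 as a dashed line. Most members lie near the line, and 7 lie above an SD of 1.

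Mir363 shows what such a spread means for single arrays. It had a log2 signal of 2.82, 5.02 and 8.10 in Kit+D cells and 6.09, 5.80 and 3.33 in Kit+ cells. The arrays within each group lay far apart, and the groups overlapped (difference 0.24, SE 1.03, limma adjusted p = 0.931). Mir103-2 had 3.82 and 7.63 on the Kit-J arrays, so that its 2 arrays stood at opposite ends of the gene's range.

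The members as a whole were highest on Kit-J replicate 1, and their level differed between the Kit-J arrays. Relative to the mean of fresh Kit- cells, the median member was 0.37 and 0.10 on the Kit-J arrays, while the median over all genes was 0.12 and 0.03. It was -0.09, -0.13 and -0.18 on the Kit-D arrays, and -0.01, 0.05 and -0.02 on the Kit- arrays themselves. Kit-J replicate 1 therefore stood apart from Kit-J replicate 2, which lay above all Kit-D and Kit- arrays. Among Kit+ cells the median member was -0.05, 0.24 and -0.06 in Kit+J, -0.09, -0.16 and -0.11 in Kit+D and 0.11, 0.05 and 0.03 in fresh Kit+ cells. The array nearest to Kit-J replicate 1 was Kit+J replicate 2, and Kit-J replicate 2 lay within the range of the fresh Kit+ arrays. The number of members above their Kit- mean was 128 and 96 on the Kit-J arrays and 33 to 56 on the Kit-D arrays. The group with the highest mean was Kit-J for 81 of the 143 members, and Kit-D or Kit+D had the lowest mean for 57 and 49 members. Neither these counts nor those above the Kit- mean were made over all genes, and the Kit-J mean rested on 2 arrays. Whether they are particular to the members was not tested. The 6 housekeeping genes measured had a median of -0.15 on Kit-J replicate 1 and 0.16 on Kit-J replicate 2, again relative to Kit-. Members with a hairpin GC content at or above the median and those under it had medians of 0.39 and 0.33 on Kit-J replicate 1 and 0.08 and 0.12 on Kit-J replicate 2. On the Kit+D arrays the medians were -0.16, -0.27 and -0.12 for the GC-rich members and 0.01, 0.01 and -0.10 for the others, so that on replicates 1 and 2 the lower level lay in the GC-rich members. The medians on the Kit+J arrays were -0.07, 0.26 and -0.15 for the GC-rich members and -0.02, 0.20 and 0.04 for the others. Over members with a hairpin, r of the difference from Kit- with GC content was -0.287, -0.369 and -0.245 on the Kit+D arrays. It was -0.294, -0.069 and -0.266 on the Kit+J arrays and -0.028 and -0.309 on the Kit-J arrays (n = 115 genes, a description). The part of GC content in the results was not tested.

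**Figure D2:**
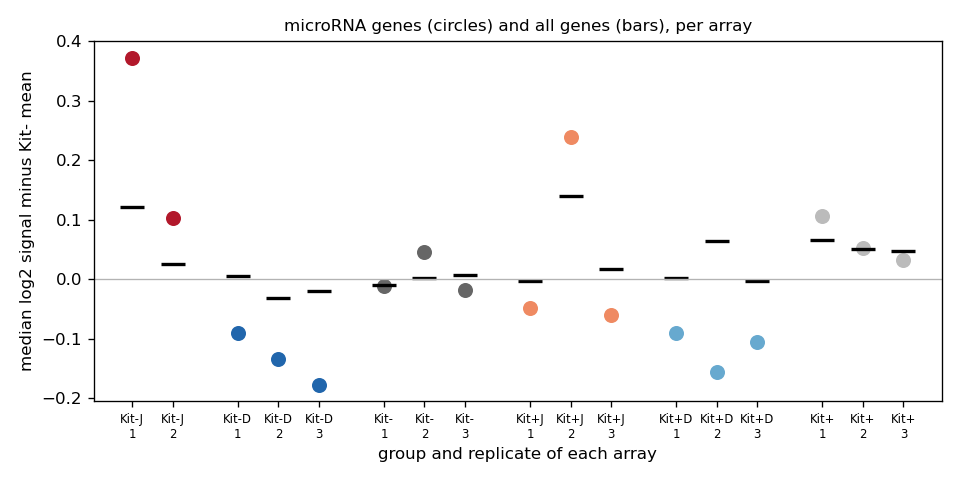
Median over the members and over all genes of the log2 difference from the fresh Kit- mean (vertical axis) on each of the 17 arrays, grouped by cell population. The Kit-J arrays lie at 0.37 and 0.10 for the members, the Kit-D and Kit+D arrays lie below 0, and Kit+J replicate 2 lies at 0.24.

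Kit-J against Kit-D cells sets the ligands side by side in cells labelled Kit- after culture. It gave the most members higher in one group. The groups also differed in the endothelial and germ cell markers given above. One label line names the opposite Kit population for both Kit-J arrays and Kit-D replicate 3. Ligand, cell make-up and labels therefore cannot be told apart in this comparison. Here 10 of the 143 members rose and 0 fell (limma, adjusted p under 0.05 over all genes), which is 6.99% of members, while 9.37% of all genes were called in either direction and 3.3% were called higher. The members' share called in either direction was below that of all genes, and their share called higher was above it. The median member was 0.40 higher in Kit-J, against 0.11 over all genes, and 121 of 143 members had a positive difference (84.6%, against 60.1% of all genes). Arrays did not overlap between Kit-J and Kit-D for 84 members that were higher in Kit-J and 6 that were lower, together 62.9%, against 47.8% of all genes (28.9% higher and 18.9% lower). The median rested in part on 1 array: it was 0.25 with Kit-J replicate 1 left out and 0.46 with Kit-J replicate 2 left out. A lone Kit-J array was then given the spread of the other groups.

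Of the 10 genes that rose, 4 belong to the Dlk1-Dio3 imprinted region. Mir667 had a log2 signal of 8.58 and 8.32 in Kit-J cells, 7.89, 7.58 and 7.53 in Kit-D cells and 8.18, 8.10 and 7.93 in fresh Kit- cells. The Kit-J arrays lay above all Kit-D arrays, with Kit- between them (Kit-J minus Kit-D 0.78, SE 0.21, adjusted p = 0.0334). Mir341 had 7.79 and 7.25 in Kit-J cells, 6.80, 6.56 and 6.73 in Kit-D cells and 7.22, 7.17 and 6.83 in Kit- cells. The difference between Kit-J and Kit-D was 0.82 (SE 0.19, adjusted p = 0.0144), and Kit-J also lay above every Kit- array. Mir679 had 5.99 and 6.38 in Kit-J cells, 5.53, 5.52 and 5.24 in Kit-D cells and 6.32, 6.15 and 6.21 in Kit- cells. Here Kit-J overlapped with Kit- and only Kit-D was low (0.75, SE 0.17, adjusted p = 0.016). Mir127, which lies antisense to the imprinted gene Rtl1, had 6.26 and 5.97 in Kit-J cells, 4.94, 5.39 and 4.78 in Kit-D cells and 6.29, 5.48 and 5.03 in Kit- cells. Its Kit-J arrays exceeded all Kit-D arrays, and Kit- replicate 1 was as high as they were (1.08, SE 0.31, adjusted p = 0.0391). All 15 members of the region had a positive difference, with a median of 0.43 and a range of 0.07 to 1.08. In 8 of the 15 the arrays did not overlap (53.3%, against 47.8% of all genes), and 60.1% of all genes had a positive difference.

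The other genes that rose come from several families. Mir449a, which shares its seed with the p53-controlled Mir34 genes and is known from multiciliated epithelia, had 5.91 and 5.23 in Kit-J cells, 4.55, 4.66 and 4.77 in Kit-D cells and 4.98, 5.18 and 5.18 in Kit- cells. It had the smallest adjusted p of the 10 (0.90, SE 0.18, adjusted p = 0.00702), and both Kit-J arrays lay above all Kit-D and Kit- arrays. Its neighbour Mir449c and the related Mir34b had differences of 0.43 and 0.59 with adjusted p = 0.131 and 0.0914. Mir195a, of the 15-16 family that restrains the cell cycle, had 6.35 and 5.94 in Kit-J cells, 5.58, 5.30 and 5.32 in Kit-D cells and 5.91, 5.74 and 5.88 in Kit- cells. The groups did not overlap (0.74, SE 0.19, adjusted p = 0.0233), and its neighbour Mir497 differed by 0.38 (adjusted p = 0.228). Mir200a, which targets the Zeb repressors of the epithelial state, had 5.29 and 5.25 in Kit-J cells, 4.73, 4.73 and 4.70 in Kit-D cells and 4.91, 4.74 and 5.01 in Kit- cells. Its replicates were close, and the difference between Kit-J and Kit-D was 0.55 (SE 0.14, adjusted p = 0.0251). The other epithelial member, Mir200c, differed by 0.69 without passing the test (adjusted p = 0.1).

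Mir194-2, known from liver and intestine, had 7.92 and 7.66 in Kit-J cells, 7.10, 6.91 and 7.18 in Kit-D cells and 7.76, 7.75 and 7.81 in Kit- cells. Kit-J and Kit- were at one level and Kit-D below both (Kit-J minus Kit-D 0.73, SE 0.18, adjusted p = 0.02). Its neighbour Mir192 lay close to the floor and differed by 0.21. Mir132, which the factor CREB induces in neurons, had 4.58 and 4.74 in Kit-J cells, 4.21, 4.05 and 4.10 in Kit-D cells and 4.28, 3.96 and 4.32 in Kit- cells. Mir138-1 had 5.54 and 5.63 in Kit-J cells, 5.11, 5.07 and 5.19 in Kit-D cells and 5.37 on each of the 3 Kit- arrays. Both had Kit-J arrays above all Kit-D and Kit- arrays, with differences from Kit-D of 0.54 (SE 0.14, adjusted p = 0.0323) and 0.46 (SE 0.13, adjusted p = 0.0375). Mir138-2, the other locus of the same mature strand, had 5.51 and 7.36 in Kit-J cells and 5.47, 5.46 and 5.42 in Kit-D cells, so that Kit-J replicate 2 made most of its difference (0.98, SE 0.37, adjusted p = 0.1).

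**Figure D3:**
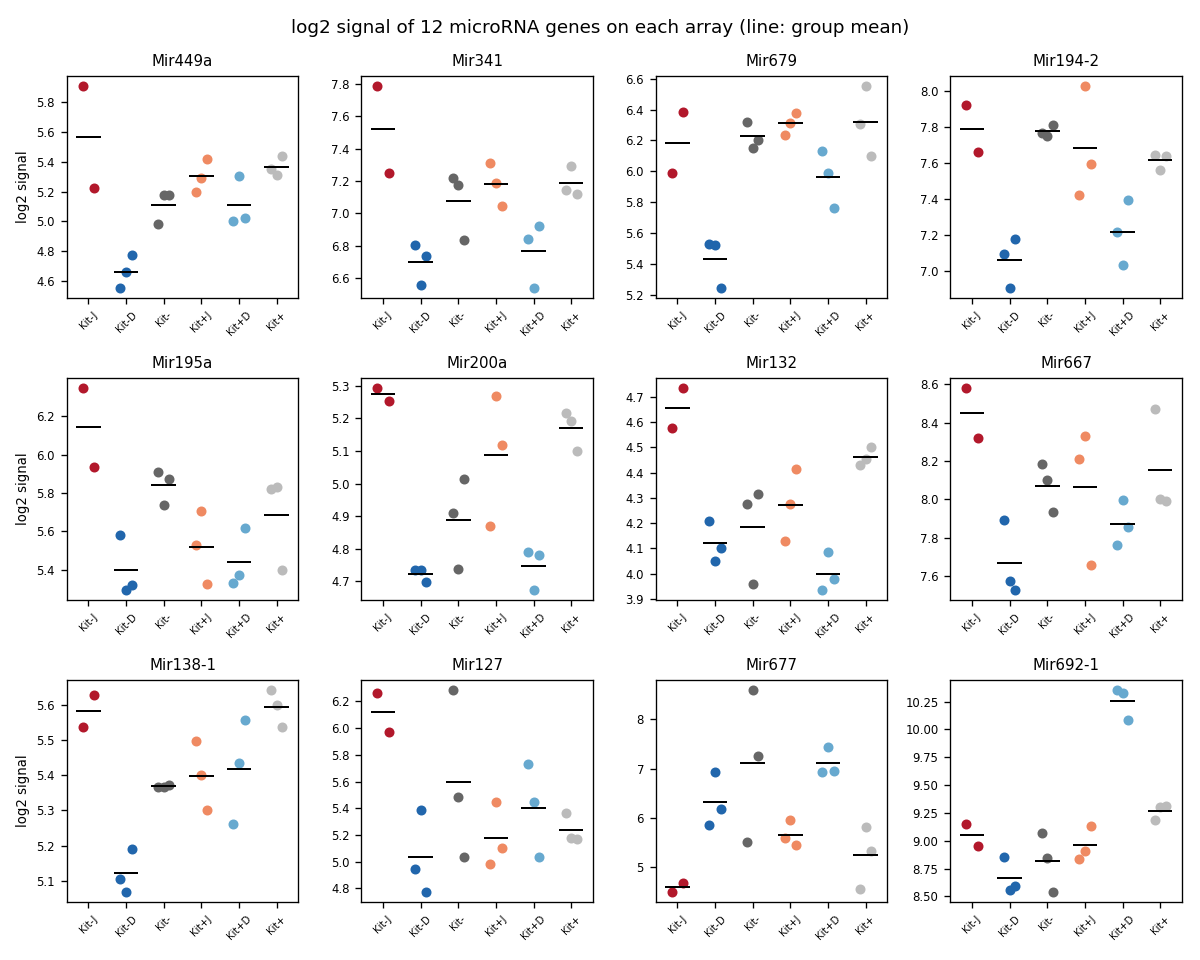
Log2 signal (vertical axis) of 12 members on each array, with the groups Kit-J, Kit-D, Kit-, Kit+J, Kit+D and Kit+ along the horizontal axis and a line at each group mean. The first 10 panels show the genes called between Kit-J and Kit-D, in which the Kit-J points lie above all Kit-D points. Mir677 is lowest in Kit-J, and Mir692-1 is highest in Kit+D, at 10.09 to 10.35.

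The calls depended on single arrays and on the fit. Without Kit-J replicate 1, 5 members were called and 1 of the 10 remained, Mir679 (adjusted p = 0.0275). Without Kit-J replicate 2, 23 were called and 6 of the 10 remained. Without Kit-D replicate 2 or Kit-D replicate 3, 3 were called, all among the 10. Leaving out an array of neither group raised the number to 17 (without Kit+J replicate 2) and 16 (without Kit+D replicate 1), with all 10 among them. With housekeeping scaling 2 were called, of which 1 was among the 10, Mir679 (adjusted p = 0.0327), and with only these groups fitted 4 were called, of which 1 was among the 10, Mir127 (adjusted p = 0.0479). The 10 differences kept their sign in all these settings.

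The microRNAs of blood cells were next, since the study asks how Notch ligands act on blood formation. All 10 members of this group had a positive difference between Kit-J and Kit-D, with a median of 0.78, and 0 of the 10 passed the test. In 7 of the 10 the arrays did not overlap, against 47.8% of all genes, of which 60.1% had a positive difference. Mir221, which targets the Kit messenger in human blood progenitors, had 5.35 and 4.36 in Kit-J cells, 4.03, 3.80 and 4.02 in Kit-D cells and 4.08, 4.31 and 4.32 in Kit- cells. Kit-J replicate 1 alone was well above the rest (Kit-J minus Kit-D 0.90, SE 0.28, adjusted p = 0.0546). Mir150, a lymphocyte microRNA, had 6.82 and 6.16 in Kit-J cells, 5.71, 5.63 and 5.41 in Kit-D cells and 5.71, 6.005 and 6.07 in Kit- cells. Both Kit-J arrays exceeded those of the other groups of Kit- cells (0.91, SE 0.29, adjusted p = 0.0659). Mir451a, which matures without Dicer in red cells, differed by 0.54 (adjusted p = 0.055), but it reached the floor only with Kit-J in the mean. Its Kit-J level thus helped to place it among the 10. Mir155 differed by 1.01 (adjusted p = 0.207) and was highest on Kit+D replicate 1 at 6.59. Ptprc was high on that array and also on every array outside the Dll4 groups, and a link between the genes was not tested. Mir142, a marker of all blood lineages, had 4.55 and 6.79 in Kit-J cells and 4.61, 3.45 and 3.38 in Kit-D cells, and these arrays overlapped. The median over 10 haematopoietic marker genes differed by 0.81 in the same comparison, and 2 of them rose.

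Other groups of microRNAs had positive medians too. The members of the 29, 30 and 34 families (6 genes) had a median of 0.36, with Mir449a called, and the 7 members and paralogues of the 17-92 cluster had a median of 0.38, with 0 called. Among 7 neural members the median was 0.35 with 0 called, and the closest to the threshold was Mir219a-1 (0.71, adjusted p = 0.0535). The neural member Mir9-3 reached the floor only with Kit-J in the mean. Mir143 and Mir199a-1, which are smooth muscle and mesenchyme genes, differed by 0.55 and 0.93 (adjusted p = 0.123 and 0.0668), while 3 of 10 stromal and mural marker genes fell and 0 rose. Mir199a-1 had 4.74 and 6.30 in Kit-J cells and 4.66, 4.53 and 4.61 in Kit-D cells, which leaves the difference to Kit-J replicate 2.

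**Figure D4:**
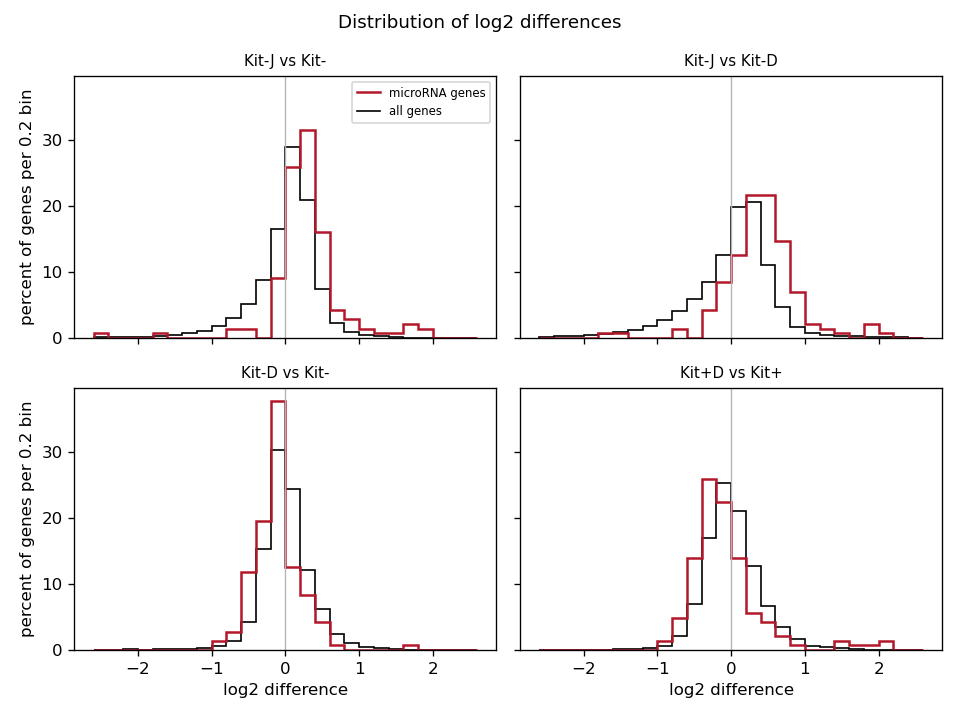
Percent of genes (vertical axis) in bins of 0.2 of the log2 difference (horizontal axis) for 4 comparisons, with the 143 members in red and all 19937 genes in black. The members' distribution lies to the right of that of all genes in both Kit-J comparisons (medians 0.25 against 0.09 for Kit-J minus Kit-, and 0.40 against 0.11 for Kit-J minus Kit-D), and to the left of it for Kit-D minus Kit- and Kit+D minus Kit+.

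Kit-J against fresh Kit- cells sets cells that were Kit- after culture on OP9-Jag1 beside cells that were Kit- when freshly sorted. The cells placed in culture had not been split by Kit, and without a culture free of ligand the part of Jag1 cannot be told apart from that of the culture. Mir677 was the only member called, and it fell (limma, 2.14% of all genes called in either direction and 1.89% called lower). It had 4.49 and 4.67 in Kit-J cells, 5.86, 6.93 and 6.19 in Kit-D cells and 5.50, 8.60 and 7.26 in Kit- cells. Both Kit-J arrays lay below every Kit- and Kit-D array, but the Kit- arrays themselves lay far apart (Kit-J minus Kit- -2.54, SE 0.62, adjusted p = 0.0477). The call held in 6 of 26 alternative settings, with adjusted p between 0.00234 and 0.319. Mir677 was also low in fresh Kit+ cells, at 4.55, 5.82 and 5.33, and it was 6.94, 7.43 and 6.95 in Kit+D cells, above all fresh Kit+ arrays (Kit+D minus Kit+ 1.87, SE 0.55, adjusted p = 0.104). The genes most like it over the 17 arrays, by Pearson's r, were Zfp442 (0.825), Snora20 (0.786), Trip6 (0.755), Flywch2 (0.748) and Rmdn1 (0.734). This is a description over arrays that share their groups.

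The remaining members were mostly higher in Kit-J than in Kit-, without passing the test. The median difference was 0.25, against 0.09 over all genes, and 124 of 143 were positive (86.7%, against 61.4% of all genes). The arrays did not overlap for 51 members higher in Kit-J and 2 lower, together 37.1%, against 32.5% of all genes (19.7% higher and 12.8% lower). With Kit-J replicate 1 left out the median was 0.10, against 0.03 over all genes, and with Kit-J replicate 2 left out it was 0.37, against 0.12. Mir680-3 came closest to a call among those that were higher, with 7.67 and 8.24 in Kit-J cells and 7.11, 6.93 and 7.29 in Kit- cells (0.85, SE 0.24, adjusted p = 0.0978). Kit-D against fresh Kit- cells, the same contrast for OP9-Dll4, had 0 members called by limma, and 0.171% of all genes called. An unadjusted p under 0.05 was found for 21 of the 143 members and 2238 of the 19937 genes. The median member was -0.11, against -0.02, and the arrays did not overlap for 7 members higher in Kit-D and 33 lower (28%, against 25.8% of all genes, of which 12.4% higher and 13.4% lower). Mir679 came nearest, with 5.53, 5.52 and 5.24 in Kit-D cells and 6.32, 6.15 and 6.21 in Kit- cells (-0.79, adjusted p = 0.0539). Mir194-2 followed (-0.71, adjusted p = 0.0713).

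These comparisons share their groups, so the values of one are not independent of those of the next. Among the 10 genes called between Kit-J and Kit-D, both Kit-J arrays exceeded all fresh Kit- arrays for Mir449a, Mir341, Mir667, Mir195a, Mir200a, Mir132 and Mir138-1. For Mir679 and Mir194-2 the Kit-J arrays overlapped with Kit-, and all Kit-D arrays lay below all Kit- arrays. Fresh Kit+ cells had means near those of Kit-J for some of these genes. The Kit+ and Kit-J means were 5.59 and 5.58 for Mir138-1, 6.32 and 6.19 for Mir679, and 5.17 and 5.27 for Mir200a. They were 4.46 and 4.66 for Mir132, 5.36 and 5.57 for Mir449a, and 7.61 and 7.79 for Mir194-2. Kit+ lay further below Kit-J for Mir667 (8.16 and 8.45), Mir341 (7.185 and 7.52), Mir195a (5.68 and 6.14) and Mir127 (5.24 and 6.12). Kit-J against Kit+ was not tested.

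Fresh Kit+ against fresh Kit- cells compares the populations that the study names cluster-containing and endothelial. They differed in other markers too. All 10 germ cell markers were higher in Kit+ cells (median 1.05), with 0 called. Of 10 stromal and mural markers 3 were called lower, and of 6 erythroid markers 2 were called lower. The part of these markers in the comparison was not tested. The host transcript Mir100hg, from which Mir100 and Mir125b-1 are cut, was the only member called, and it fell (3.23% of all genes called, 2.67% lower). It had 4.76, 5.35 and 4.41 in Kit+ cells and 6.98, 6.88 and 6.17 in Kit- cells, with no overlap (-1.84, SE 0.42, adjusted p = 0.0262). In Kit-J cells it was also low, at 4.68 and 5.27, and in Kit-D cells it was 5.79, 6.80 and 6.65 (Kit-J minus Kit- -1.70, adjusted p = 0.0931). The median member was 0.068 in Kit+ against Kit-, and the median over all genes 0.065, and with arrays scaled to the housekeeping genes it was -0.09 for both. The arrays did not overlap for 10.5% of members, against 26.5% of all genes.

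Among Kit+ cells, 0 members were called in Kit+J against fresh Kit+ (limma, 0.0201% of all genes called). An unadjusted p under 0.05 was found for 7 of the 143 members and 1330 of the 19937 genes. In Kit+D against fresh Kit+ 1 was called, Mir692-1, which rose (1.42% of all genes called, 1.04% higher). Mir692-1, the brightest member, had 10.35, 10.33 and 10.09 in Kit+D cells and 9.19, 9.31 and 9.31 in Kit+ cells (0.99, SE 0.15, adjusted p = 0.00894). Every Kit+D array lay above every other array of the series, where the gene was between 8.54 and 9.31. Its name marks it as one of several loci for the same mature strand, and its probes may not tell them apart. The median member was -0.19 in Kit+D against Kit+ and -0.02 over all genes. The part of GC content, with which Kit+D and some other arrays varied, was not tested here. The arrays did not overlap for 9 members higher and 37 lower in Kit+D, together 32.2%, against 22.1% of all genes (10.1% higher and 12% lower). With housekeeping scaling the median member was -0.06, against 0.11 over all genes. Short nuclear and nucleolar RNAs went the other way, with a median of 0.71 in the same comparison.

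Kit+J against Kit+D cells called Mir692-1 lower and Mir128-2 higher in Kit+J (2.25% of all genes called, 1.68% lower and 0.577% higher). Mir692-1 had 8.83, 8.91 and 9.14 in Kit+J cells, below all Kit+D arrays (-1.30, SE 0.15, adjusted p = 0.00145). Mir128-2, a brain microRNA within Arpp21, had 5.04, 5.32 and 5.19 in Kit+J cells and 4.36, 4.42 and 4.40 in Kit+D cells (0.79, SE 0.18, adjusted p = 0.039). It did not overlap between them, but its call held in 11 of 27 alternative settings. The median member was 0.13 in this comparison, against 0.03 over all genes, and 23.8% of members had arrays that did not overlap, against 17.1%.

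Kit+D against Kit-D cells gave the largest number of called members, 13, of which 7 rose and 6 fell (9.09%, against 13.1% of all genes, 6.5% higher and 6.62% lower). Same-numbered samples of these groups deviated together, and with the replicate as a block Mir25 and Mir328 lost their calls (adjusted p = 0.0592 and 0.0691). Mir692-1 rose most clearly, with the Kit+D values given above and 8.85, 8.56 and 8.60 in Kit-D cells (1.59, SE 0.15, adjusted p = 2.41e-05). Mir680-3, one of 3 members that share a seed, fell, with 6.39, 6.08 and 6.40 in Kit+D cells and 7.43, 7.15 and 7.41 in Kit-D cells (-1.04, SE 0.21, adjusted p = 0.00564). The groups did not overlap in either gene, and both calls held in all 27 alternative settings.

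Members of the 17-92 cluster and its paralogues were among those that rose. Mir19b-1, a gene of the cluster itself, had 5.96, 6.94 and 7.71 in Kit+D cells and 4.40, 4.33 and 3.97 in Kit-D cells (2.64, SE 0.80, adjusted p = 0.0414). Mir25 had 7.29, 8.29 and 9.14 in Kit+D cells and 7.14, 6.84 and 6.20 in Kit-D cells (1.52, SE 0.48, adjusted p = 0.0498). The arrays did not overlap in either gene, although those of Mir19b-1 varied widely in other groups, between 3.88 and 6.38 in fresh Kit+ cells. The neighbour Mir20a differed by 1.96 without passing the test (adjusted p = 0.178). Mir674 had 7.50, 6.41 and 6.70 in Kit+D cells and 5.97, 5.73 and 6.05 in Kit-D cells (0.95, adjusted p = 0.0162). Mir598 and Mir679 rose by 0.55 and 0.53 (adjusted p = 0.0113 and 0.037). Mir6516 rose by 0.70 (adjusted p = 0.0337), but its arrays overlapped.

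The members that fell in Kit+D cells included Mir181d, of a family that guides lymphoid development. It had 6.35, 6.13 and 6.37 in Kit+D cells and 7.07, 6.91 and 6.90 in Kit-D cells (-0.68, SE 0.20, adjusted p = 0.041). Mir3107 fell by 0.67, Mir30d by 0.55, Mir378a by 0.53 and Mir328 by 0.53 (adjusted p = 0.0302, 0.0284, 0.026 and 0.0491). In the same comparison all 12 endothelial markers fell, with a median of -1.73, and 4 of 10 germ cell markers rose. Kit+J against Kit-J cells called 0 members (limma, 0.0903% of all genes called). An unadjusted p under 0.05 was found for 17 of the 143 members and 2133 of the 19937 genes. The median member was -0.21, against -0.02 over all genes. Without Kit-J replicate 1 that median was -0.04.

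Whether the culture effect of OP9-Jag1 differed between Kit- and Kit+ cells was tested as an interaction, the effect in Kit- cells minus that in Kit+ cells. By limma, 0 members and 0.582% of all genes were called. An unadjusted p under 0.05 was found for 17 of the 143 members and 1882 of the 19937 genes. The median member was 0.27, against 0.07 over all genes. Mir677 had a value of -2.96 (adjusted p = 0.184).

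Many microRNA genes lie within a named gene, and the signal of the host was set beside that of the member. There were 47 such pairs with 37 hosts on the array. Hosts were taken at any level, also below a log2 signal of 4, as for Hoatz (2.96 to 3.69), where r says little. Pearson's r over the 17 arrays had a median of 0.061, with 6 pairs above 0.5 and 20 below 0. Mir338 and its host Aatk, chosen as the highest, reached 0.799, with Kit-J replicate 1 at the top for both genes. Mir25 and its host Mcm7, a subunit of the replicative helicase, had r = 0.626, and Mcm7 rose in Kit+D cells together with it, at 8.84, 9.02 and 9.54 against 7.91, 7.41 and 7.68 in Kit-D cells (1.47, adjusted p = 0.000319). Mir93 and Mir106b lie in the same host and differed by only -0.03 and 0.20 there (adjusted p = 0.918 and 0.647). Mir128-2 and Arpp21 had r = 0.647, and Arpp21 had a low signal, between 3.72 and 4.64 on every array.

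The host of Mir341 differed in the opposite direction between Kit-J and Kit-D cells. Rian, which also holds Mir370 and is a maternally expressed non-coding transcript of the Dlk1-Dio3 region, had 4.07 and 4.64 in Kit-J cells, 6.15, 7.60 and 5.46 in Kit-D cells and 8.40, 6.90 and 6.27 in Kit- cells. It fell in Kit-J cells against both (-2.05, SE 0.58, adjusted p = 0.0385 against Kit-D, and -2.83, adjusted p = 0.0165 against Kit-). Mir341 rose against Kit-D, and Mir370 differed by 0.37 (adjusted p = 0.286). Over the 17 arrays r with Rian was -0.318 for Mir341 and 0.164 for Mir370. Rian also fell in fresh Kit+ against Kit- cells (-3.35, adjusted p = 0.00117), where Mir341 differed by 0.11 (adjusted p = 0.87). The host of Mir677, Atp5b, a subunit of mitochondrial ATP synthase, was between 10.99 and 11.51 on every array and differed by 0.04 between Kit-J and Kit- cells. It rose by 0.41 in Kit+D against Kit-D cells (adjusted p = 0.0171), where Mir677 differed by 0.78 (adjusted p = 0.391).

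**Figure D5:**
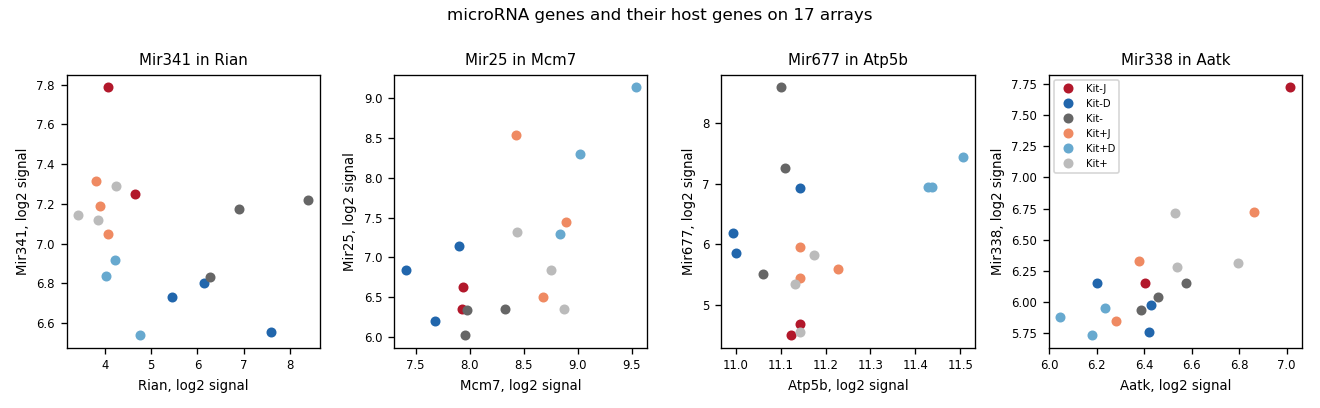
Log2 signal of 4 members (vertical axes) against that of their host genes (horizontal axes) over the 17 arrays, with points coloured by group. Mir338 and Mir25 rise with Aatk and Mcm7 (r = 0.799 and 0.626), Mir677 varies widely over a narrow range of Atp5b (r = 0.341), and Mir341 is lowest in the Dll4 groups and not where Rian is lowest (r = -0.318).

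Members that lie within 10 kb of each other were compared in the same way. There were 42 members in 15 such clusters. Pearson's r over the 17 arrays was 0.628 for Mir19b-1 and Mir20a, 0.597 for Mir449a and Mir449c, 0.59 for Mir192 and Mir194-2, 0.534 for Mir195a and Mir497 and 0.415 for Mir132 and Mir212. In the Dlk1-Dio3 region the pairs of the cluster with Mir667 and Mir679 had r between 0.205 and 0.686. It was -0.044 for Mir181a-2 and Mir181b-2, and ranged from -0.254 to 0.537 in the cluster of Mir25, Mir93 and Mir106b. These arrays share their groups, and the values are descriptions.

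The genes of the microRNA pathway were measured on the same arrays, with 23 listed. Between Kit-J and Kit-D cells 2 rose and 2 fell (17.4%, against 9.37% of all genes). Xpo5, the exporter of precursors, rose by 0.75 (adjusted p = 0.042), with 7.89 and 8.18 in Kit-J cells and 7.04, 7.33 and 7.49 in Kit-D cells. Lin28a, which blocks the processing of let-7 precursors, rose by 1.81 (adjusted p = 0.0223), with 7.07 and 6.83 in Kit-J cells and 5.21, 4.89 and 5.33 in Kit-D cells. Lin28a is also expressed by primordial germ cells, and 7 of the 10 germ cell markers rose in the same comparison. Prkra, a partner of Dicer, fell, with 4.68 and 4.73 in Kit-J cells and 6.45, 6.19 and 6.42 in Kit-D cells (-1.64, adjusted p = 0.00517). Tnrc6a, a silencing factor bound by Argonaute, fell (-1.13, adjusted p = 0.00219). Prkra also fell in Kit-J against fresh Kit- cells (-1.35, adjusted p = 0.0369).

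In Kit+D against Kit-D cells 3 pathway genes rose and 3 fell (26.1%, against 13.1% of all genes). Xpo5 rose by 0.84 (adjusted p = 0.0103), Tarbp2, another partner of Dicer, by 0.998 (adjusted p = 0.00587) and Khsrp, which promotes the processing of some precursors, by 0.68 (adjusted p = 0.0392). Prkra fell by 0.93, and the uridylyltransferases Tut4 and Tut7, which modify let-7 precursors, fell by 0.64 and 0.90 (adjusted p = 0.0408, 0.00911 and 0.0122). Lin28b rose in fresh Kit+ against Kit- cells (1.14, adjusted p = 0.0445), and Khsrp fell in Kit+J against Kit+D cells (-0.85, adjusted p = 0.0431). Drosha, Dgcr8 and Dicer1 were in none of these calls.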

How the data were processed

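Each of the 17 samples was 1 Affymetrix Mouse Gene 1.0 ST array. The authors amplified total RNA (Ovation Pico WTA) and deposited log2 signals, which per the labels are normalized by RMA (version not given in the sources used here). Probe sets were named from the platform annotation: of 34760, 21640 had 1 gene symbol, 1321 several and 11799 none. Probe sets with 1 symbol were kept, and a gene with more than 1 (954 genes, 2 of them members) took the brightest. All 143 members were matched to RefSeq by Entrez identifier, and 115 had a hairpin sequence.

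Groups came from titles and source names. One model of group means over all 17 arrays was fitted with limma 3.58.1 in R 4.3.3 (lmFit, eBayes), with Benjamini-Hochberg adjustment over 19937 genes and a threshold of 0.05. Separate sorting experiments are stated for the replicates of the cultured groups, Kit-J has 2 arrays and the other groups 3 each, and the number of arrays limits the precision. Same-numbered samples deviated together most in Kit+D against Kit-D (r = 0.462, 0.179 and 0.289), and r was at most 0.149 elsewhere, so the block is given there. The script was tested on simulated data.

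Genes were named by rule: the 12 brightest members, called members (up to 8 per direction, 12 in the Kit-J comparisons), the 3 on each side of the floor, up to 3 per microRNA group with arrays that did not overlap in a Kit-J comparison, the 6 with the largest range of group means, and the 5 genes most like Mir677. Neighbours, hosts and pathway genes were added. Members, lists and comparisons were chosen with earlier results of these data known. Alternatives were the groups compared alone, a variance trend with robust prior, removal of genes with a mean below 4, housekeeping scaling, array weights, averaging of probe sets per gene, a replicate block, a member floor of 5 and each array left out.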

Additional observations from a re-analysis of the deposited data

How the results depend on the processing

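In the reported fit, calls numbered 1 in Kit-J against Kit-, 10 in Kit-J against Kit-D, 1 in Kit+ against Kit-, 1 in Kit+D against Kit+, 2 in Kit+J against Kit+D, 13 in Kit+D against Kit-D and 0 elsewhere. Of the 28 called gene and comparison pairs under every setting, 527 values kept their call, 218 lost it and 0 reversed. Mir692-1 and Mir680-3 between Kit+D and Kit-D kept their calls throughout. With the groups compared alone, calls numbered 4 in Kit-J against Kit-D (3 higher, 1 lower; 1 of the 10 remained), 0 for Kit+D with Kit+, 0 for Kit+J with Kit+D and 7 in Kit+D against Kit-D. With housekeeping scaling they were 2 in Kit-J against Kit-D (1 of the 10 remained), 2 in Kit+ against Kit-, 3 in Kit+D against Kit+, 3 in Kit+J against Kit+D (0 higher, 3 lower) and 5 in Kit+D against Kit-D (4 higher, 1 lower). With array weights they were 0 in Kit-J against Kit-, 6 in Kit-J against Kit-D, 5 in Kit-D against Kit-, 11 in Kit+D against Kit+ and 22 in Kit+D against Kit-D. A variance trend gave 0 in Kit-J against Kit-, and a floor of 5 gave 1 in Kit+J against Kit+D. The replicate block gave 2 in Kit+ against Kit- and 12 in Kit+D against Kit-D, of which 11 were shared with the 13. Outside Kit+D against Kit-D, r between same-numbered samples was at most 0.149, which cannot show that they were unpaired. The cause of these shifts was not tested.

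Settings chosen after seeing the data left arrays out. Without Kit-J replicate 1 and Kit+J replicate 2, the arrays with the highest member medians, calls numbered 2 in Kit-J against Kit-, 5 in Kit-J against Kit-D, 2 in Kit-D against Kit-, 10 in Kit+D against Kit+, 2 in Kit+J against Kit-J and 2 in the interaction. Without both Kit-J arrays they were 1 in Kit-D against Kit-, 4 in Kit+J against Kit+D and 3 in Kit+D against Kit+. Without replicate 1 of Kit-D and of Kit+D they were 1 in Kit-D against Kit-, 1 for Kit+J with Kit+D and 5 in Kit+D against Kit-D.

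With each array left out in turn, calls ranged from 0 to 7 in Kit-J against Kit- (7 without Kit-J replicate 2), 3 to 23 in Kit-J against Kit-D (3 without Kit-D replicate 2 or 3, 23 without Kit-J replicate 2), 0 to 1 in Kit-D against Kit-, 0 to 1 in Kit+ against Kit-, 0 to 0 in Kit+J against Kit+, 0 to 5 in Kit+D against Kit+, 1 to 6 in Kit+J against Kit+D, 0 to 2 in Kit+J against Kit-J, 3 to 15 in Kit+D against Kit-D (3 without Kit-D replicate 2) and 0 to 2 in the interaction. The median difference of the members kept its sign in every setting, except in Kit+ against Kit- with housekeeping scaling (-0.09), in Kit+D against Kit-D with array weights (-0.02) or a floor of 5 (-0.03), and in Kit+J against Kit+ without replicate 1 or 2 of Kit+ or replicate 1 or 3 of Kit+J (up to 0.06).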
